A study of Mus musculus with 6 samples.

Results

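The genes described here make, sense, move and export cholesterol in isolated mouse pancreatic islets. They were chosen by symbol as 30 genes of sterol synthesis, uptake and export. Of these, 27 had a probe set naming that gene alone among the 18193 genes tested. The expression of Acat2, Soat1 and Nr1h2 was not analysed here. Where several probe sets named a gene alone, the brightest on average was used.

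The islets were those of male CD1 mice aged 8 weeks, and they rested overnight in RPMI medium. The vehicle group (3 arrays) then received 0.1% ethanol for 24 hours. The CMPF group (3 arrays) received 200 uM CMPF, a furan fatty acid metabolite that circulates in blood, for the same time. The comparison asks whether genes of sterol metabolism differ with CMPF; the series title names metabolism as its subject. An islet is a mixture of endocrine and other cells, and in such bulk RNA fewer cells of a type and less RNA per cell cannot be told apart. Nothing in the labels ties a numbered sample to its own animals or islet preparation, so p-values reflect only how far these samples spread, and that spread may be technical.

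Cholesterol is built from acetyl-CoA through mevalonate, isoprenoids and squalene, and then through a series of sterol intermediates. When membrane sterol is low, SCAP carries the transcription factor SREBP2 (encoded by Srebf2) from the endoplasmic reticulum to the Golgi, where it is cleaved and released to switch on nearly every gene of the synthesis route. When sterol is plentiful, the INSIG proteins hold SCAP back, and oxysterols activate the nuclear receptors LXR alpha and LXR beta, which switch on the export pumps ABCA1 and ABCG1. Beta cells depend on this balance because membrane cholesterol affects insulin granule release.

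The values are log2 RMA signals, so 1 unit is a factor of 2, and every difference below is CMPF minus vehicle. All 27 genes read above the median of all genes, 6.42, but probe sets differ in brightness, so levels are compared between arrays and not between genes. The median over all probe sets lay between 5.08 and 5.15 on the 6 arrays. Arrays of the same replicate number deviated together, so vehicle 1 and CMPF 1 are called pair 1, and so on. The beta cell gene Ins2 read between 14.61 and 14.73 on all 6 arrays, at the highest signal of any probe set (14.73), so it says little about beta cell content. The mean of the beta cell markers (9 of 12 listed genes measured) was 11.92, 11.55 and 11.64 on the vehicle arrays and 12.03, 11.50 and 11.44 on the CMPF arrays; their pair medians were 0.028, -0.026 and -0.17, and 9 of 9 were lower with CMPF in pair 3. Markers of exocrine acinar cells (15 of 18 listed genes measured) averaged 10.31 to 12.01 on the vehicle arrays and 11.10 to 12.08 on the CMPF arrays. Of these acinar markers, 14 of 15 had a positive difference, the median difference was 0.43, and 11 of 15 were higher in all 3 pairs, against 11.8% of all genes, though limma called 0 of them. With the replicate number as a block, 9 of 15 had an unadjusted limma p under 0.05, against 3.8% of all genes, and 0 were called. The part of acinar cells in the results below was looked at only through the covariate fit given there. Most acinar markers read higher with CMPF, so that fit cannot fully separate acinar content from the treatment. For stellate cell markers (12 of 12 measured) these ranges were 8.65 to 9.13 and 8.24 to 9.42.

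With CMPF, genes of the mevalonate steps read slightly lower and genes of the later sterol steps were mixed. At their brightest probe sets the LXR and export genes differed by less than 0.1 log2 units. With the mean of all probe sets of a gene, Abca1 differed by -0.11, Abcg1 by -0.16 and Nr1h3 by -0.033. None of these differences passed the test. Of the 27 genes, 19 had a negative and 8 a positive difference, and the median was -0.057, where the median over all genes was 0.0018 and 49.3% were negative. Limma called 0 of 27 at an adjusted p under 0.05, with 0 at an unadjusted p under 0.05. Over all genes it called 0.0% (smallest adjusted p = 0.99995), and 1.13% had an unadjusted p under 0.05. With the replicate number as a block it again called 0 of 27, and 0.0% of all genes (smallest adjusted p = 0.979). An unadjusted p under 0.05 was then reached by 0 of 27, against 3.8% of all genes. For 22 of the 27 genes the difference was smaller than its own standard error. The 95% intervals of the 27 differences lay between -0.63 and 0.55, or 0.647-fold to 1.46-fold, and changes beyond these bounds lay outside every interval.

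**Figure D1:**
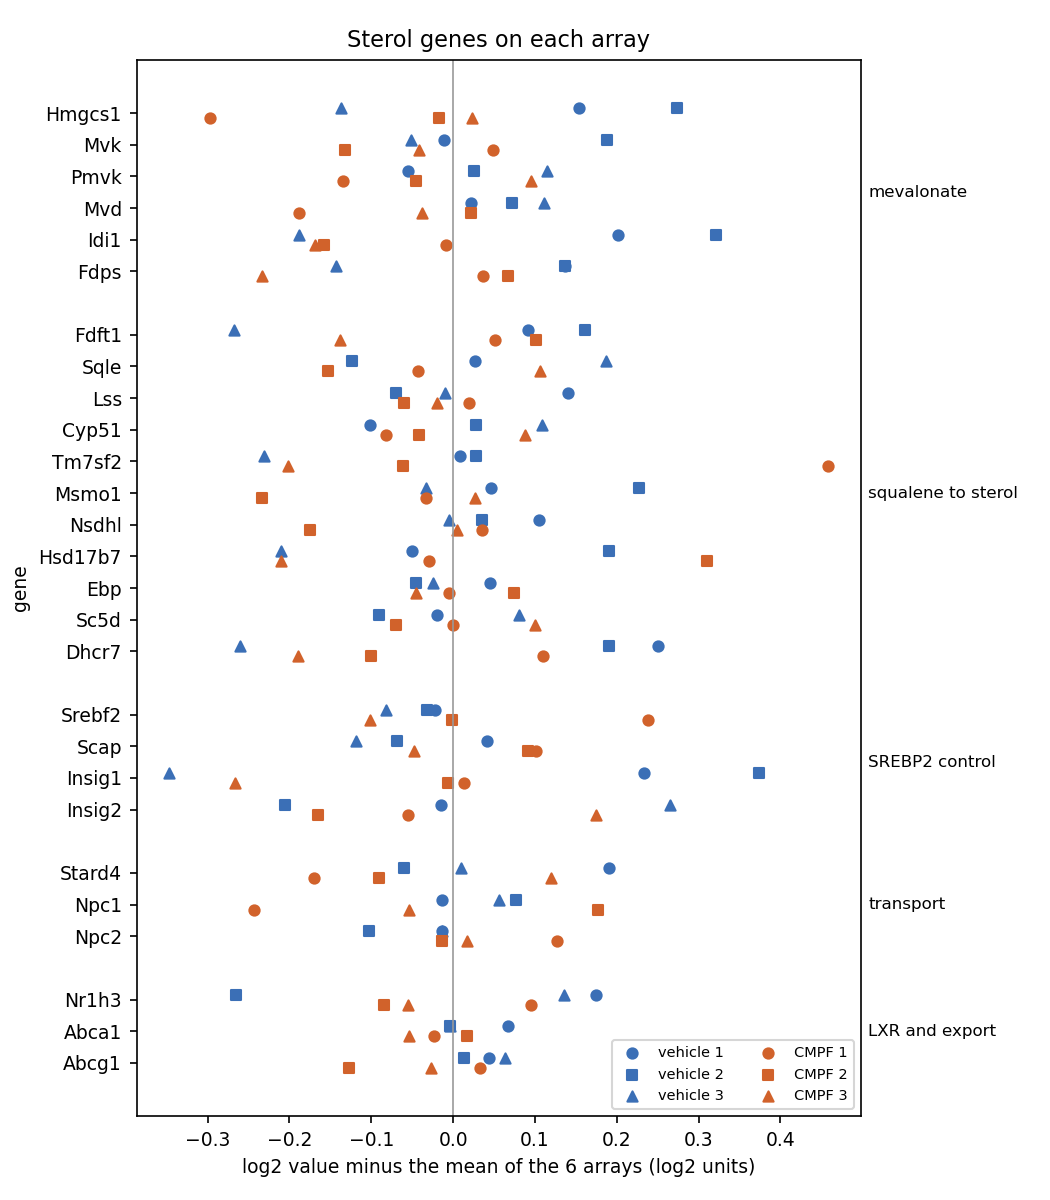
Log2 value of each of the 27 measured genes on each array, minus that gene's mean over the 6 arrays (log2 units), grouped by role; colour marks the treatment and shape the replicate number. The vehicle and CMPF points of most genes interleave; Mvd is the one gene whose groups do not overlap, and for Insig1, Dhcr7 and Fdft1 the vehicle 3 array is the lowest of the 6.

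The first group holds the enzymes that turn acetoacetyl-CoA into the C5 and C15 isoprenoid units. All 6 measured genes had a negative difference, with a median of -0.11 and a range of -0.23 to -0.057, and 0 passed the test. The median was -0.16 in pair 1, -0.18 in pair 2 and -0.0099 in pair 3. Of these genes 3 (Pmvk, Mvd and Fdps) were lower with CMPF in all 3 pairs; over all genes this share was 11.1%.

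Hmgcs1, the cytosolic HMG-CoA synthase, read 10.03, 10.15 and 9.74 on the vehicle arrays and 9.58, 9.86 and 9.90 on the CMPF arrays. The CMPF arrays of pairs 1 and 2 lay below their partners and that of pair 3 lay above, and the groups overlapped. The difference was -0.19 (SE 0.138, 95% interval -0.52 to 0.13), or 12.6% lower signal, and 3 further bright probe sets of the gene gave -0.13, -0.062 and -0.12. All 4 had the same signs over the pairs. Idi1, which isomerises isopentenyl diphosphate, read 8.47, 8.59 and 8.08 with vehicle and 8.26, 8.11 and 8.10 with CMPF. Its difference of -0.23 (SE 0.144, 95% interval -0.56 to 0.11) was the farthest from 0 among the 27 genes with all arrays, and the vehicle 3 array lay below all 3 CMPF arrays. It was -0.12 without vehicle 2 and -0.38 without vehicle 3, where Insig1 was farther from 0, at -0.39. A dimmer probe set of Idi1 gave -0.38 with all arrays, with pair differences of -0.32, -0.93 and 0.12. Mvd, mevalonate diphosphate decarboxylase, read 6.49, 6.54 and 6.58 with vehicle and 6.28, 6.49 and 6.43 with CMPF. Every CMPF array lay at or below the lowest vehicle array, which at more decimals left no overlap, and the difference was -0.14 (SE 0.0901). It was the 1 gene of 27 (3.7%) whose groups did not overlap, against 4.52% of all genes (2.11% with CMPF lower, as here, and 2.41% with CMPF higher). The second probe set of Mvd read lower. Its CMPF values were 6.35, 6.39 and 5.80, its vehicle values were 6.31, 5.82 and 6.10, and the groups overlapped. Its difference was 0.10, with pair differences of 0.038, 0.57 and -0.30, so the sign for Mvd depends on the probe set. With the mean of its probe sets Mvd differed by -0.018.

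Fdps, farnesyl diphosphate synthase, read 9.65, 9.65 and 9.37 with vehicle and 9.55, 9.58 and 9.28 with CMPF. Its pair differences were close to each other, at -0.10, -0.075 and -0.10, while the arrays of pair 3 lay lowest in both groups. Pmvk, phosphomevalonate kinase, differed by -0.081, -0.067 and -0.024 in the 3 pairs. Mvk, mevalonate kinase, read 7.26, 7.46 and 7.22 against 7.32, 7.14 and 7.23, and only pair 2 differed by more than 0.1.

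SREBP2 binds short sterol regulatory elements near the start of its target genes, usually beside a CCAAT box, the site of the factor NF-Y. Promoters from RefSeq (GRCm38.p6; 250 bases before to 50 after the start) were listed for 24 of the 30 genes. CCAAT, searched on both strands, was found for 16 of 17 SREBP2 target genes with a promoter (Acat2 counted among the 17), against 41.1% of all 27025 genes listed and 42.0% of genes measured on the arrays. The element TCACNCCAC, on either strand, was found for 1 of these 17 genes, Hmgcs1, against 1.44% of all genes. The same element written TCACCCCAC, with at most 1 letter different, was found for 5 of the 17 (29.4% against 11.1%). It overlaps the first form and stood as TCACCCCAC for Hmgcs1, TCACCTCAC for Hsd17b7, TCACCCCAT for Srebf2, ACACCCCAC for Acat2 and TCACCCAAC for Nsdhl. A match is a description of the letters and not evidence of binding. The 250 bases before the start are shown for the mevalonate genes with the differences farthest from 0, with CCAAT (or its reverse, ATTGG) and the element for Hmgcs1 in capitals. They lie at chr13:119690101-119690350, plus strand, for Hmgcs1, at chr13:8885356-8885605, plus strand, for Idi1 and at chr8:122443423-122443672, minus strand, for Mvd.
Hmgcs1: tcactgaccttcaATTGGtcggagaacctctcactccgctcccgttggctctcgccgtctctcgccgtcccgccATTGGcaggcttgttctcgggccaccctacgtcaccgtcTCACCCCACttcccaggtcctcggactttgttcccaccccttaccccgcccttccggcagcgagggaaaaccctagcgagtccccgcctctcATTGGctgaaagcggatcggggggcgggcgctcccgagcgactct
Idi1: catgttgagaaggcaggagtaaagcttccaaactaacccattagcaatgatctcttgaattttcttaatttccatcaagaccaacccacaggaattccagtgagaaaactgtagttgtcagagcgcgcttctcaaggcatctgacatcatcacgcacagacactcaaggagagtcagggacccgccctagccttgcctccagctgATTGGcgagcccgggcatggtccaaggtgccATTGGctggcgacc
Mvd: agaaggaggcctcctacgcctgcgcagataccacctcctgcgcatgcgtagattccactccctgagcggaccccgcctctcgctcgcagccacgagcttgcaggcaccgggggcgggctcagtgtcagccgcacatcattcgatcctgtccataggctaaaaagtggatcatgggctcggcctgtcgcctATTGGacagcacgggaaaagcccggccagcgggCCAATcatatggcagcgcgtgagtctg
The Hmgcs1 element begins 137 bases before the start and lies between CCAAT boxes, and the boxes of Idi1 and Mvd lie close to the start.

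The second group, 11 enzymes from squalene to cholesterol, was mixed, with 6 negative and 5 positive differences, a median of -0.027 and 0 called. The pair medians were -0.051, -0.059 and 0.0061, and the range ran from -0.16 for Msmo1 to 0.13 for Tm7sf2.

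Msmo1, the sterol C4 methyl oxidase, read 9.31, 9.49 and 9.23 with vehicle and 9.23, 9.03 and 9.29 with CMPF, a difference of -0.16 (SE 0.112). Most of it came from pair 2, at -0.47, while pair 3 stood at 0.063. Dhcr7, which completes cholesterol by reducing 7-dehydrocholesterol, read 8.00, 7.94 and 7.49 with vehicle and 7.86, 7.65 and 7.56 with CMPF. Again the vehicle 3 array was the lowest of the 6, and the difference was -0.12 (SE 0.155). Fdft1, squalene synthase, read 10.06, 10.13 and 9.70 with vehicle and 10.02, 10.07 and 9.83 with CMPF, a difference of 0.013 (SE 0.136). Its other bright probe set differed by -0.11, so the sign depends on the probe set.

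Sqle, the squalene epoxidase that acts early in this part of the route, read 10.37, 10.22 and 10.53 with vehicle and 10.30, 10.19 and 10.45 with CMPF. Its arrays ordered the other way from Fdft1 and Dhcr7, with pair 3 highest in both groups, and its pair differences were -0.070, -0.027 and -0.081. Cyp51, lanosterol demethylase, was also highest in pair 3, at 9.27 with vehicle and 9.25 with CMPF, and differed by -0.027 (SE 0.0963). Nsdhl, a sterol dehydrogenase, read 8.47, 8.40 and 8.36 against 8.40, 8.19 and 8.37, with a difference of -0.091 (SE 0.0930). Lss, which cyclises squalene epoxide to lanosterol, differed by -0.037, and its second probe set by -0.17.

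Tm7sf2, a sterol C14 reductase, read 6.93, 6.95 and 6.69 with vehicle and 7.38, 6.86 and 6.72 with CMPF. The CMPF 1 array alone stood above the rest, and the difference of 0.13 (SE 0.177) was -0.064 without it. Hsd17b7, a sterol ketone reductase, read 7.38, 7.62 and 7.22 against 7.40, 7.74 and 7.22, so each CMPF array lay at or above its partner and the arrays of pair 2 were highest. Sc5d, a sterol desaturase, differed by 0.027, 0.012 and 0.025 in the pairs, and Ebp, the sterol isomerase, by -0.051, 0.12 and -0.019. For Hsd17b7 and Sc5d another probe set above the median level of all genes had the opposite sign, at -0.081 and -0.032.

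**Figure D2:**
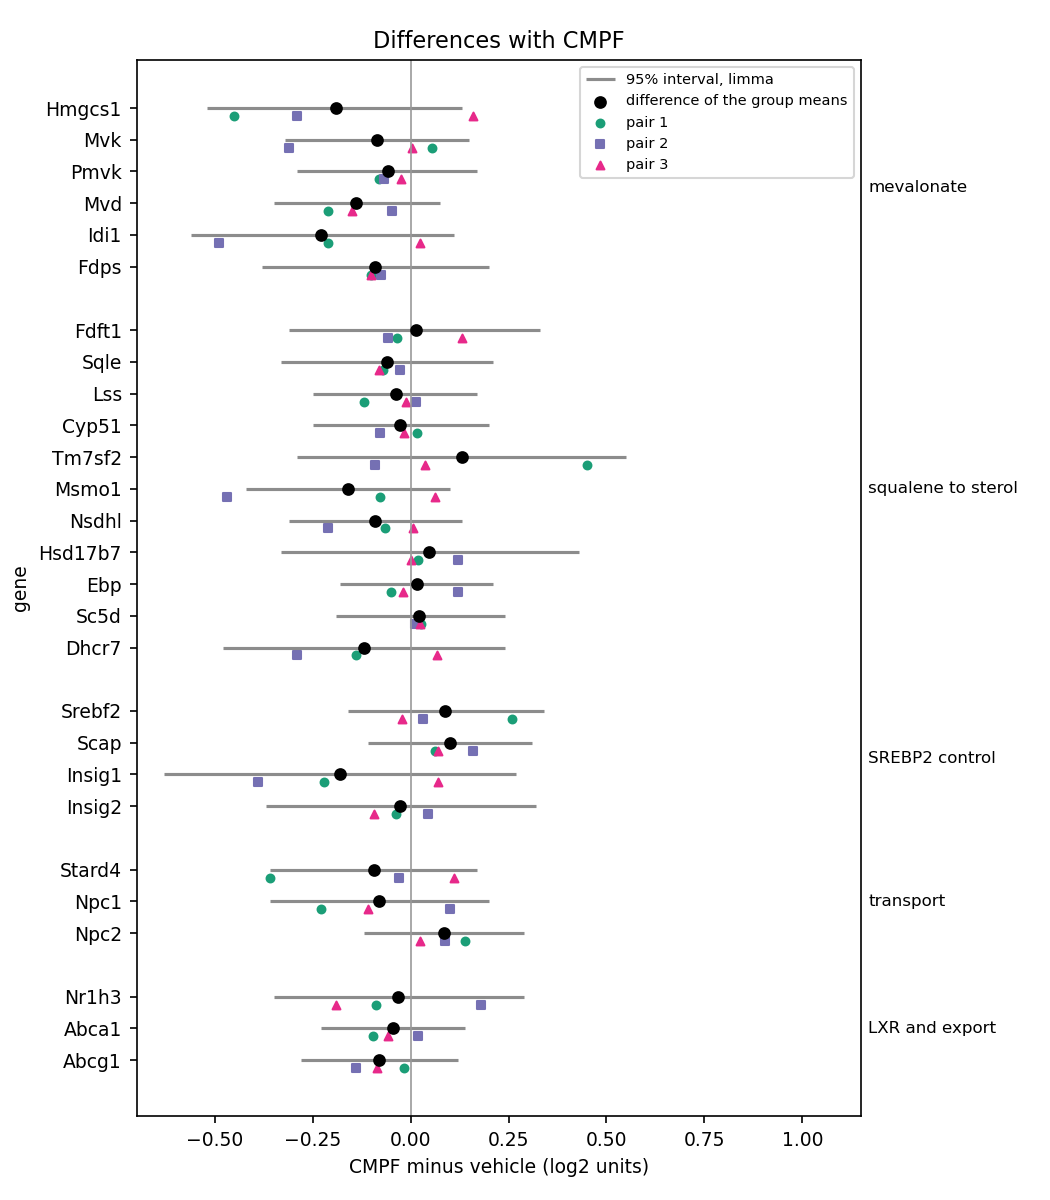
CMPF minus vehicle (log2 units) for each measured gene, with the 95% interval from limma without the replicate block (bars) and the difference in each pair of same-numbered arrays (small symbols). Every interval includes 0; the points of pairs 1 and 2 lie left of 0 and that of pair 3 right of it for 8 of the genes, among them Hmgcs1, Idi1, Msmo1, Dhcr7 and Insig1.

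The control genes did not move as a group: 2 differences were negative and 2 positive, and 0 passed. Insig1, itself an SREBP2 target, read 8.52, 8.66 and 7.94 with vehicle and 8.30, 8.28 and 8.02 with CMPF. The vehicle arrays spread over a wider range than the CMPF arrays and enclosed all of them, so the difference of -0.18 had the widest interval of the control genes (SE 0.192, 95% interval -0.63 to 0.27). The block lowered the SE to 0.106. Insig2, the related INSIG protein gene, read 9.08, 8.89 and 9.36 with vehicle and 9.04, 8.93 and 9.27 with CMPF. It was highest in pair 3, where Insig1 was lowest, and its difference was -0.028 (SE 0.147); the other bright probe sets gave -0.026 and -0.23.

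Srebf2 read 7.10, 7.09 and 7.04 with vehicle and 7.36, 7.12 and 7.02 with CMPF. Only CMPF 1 stood apart, and the difference was 0.089 (SE 0.107), or -0.0070 without that array. Another bright probe set of Srebf2 gave 0.13, with pair differences of 0.051, 0.28 and 0.059, and there CMPF 2 stood apart, at 7.31. Scap, the SREBP escort, read 9.30, 9.19 and 9.14 with vehicle and 9.36, 9.35 and 9.21 with CMPF. Each CMPF array lay above its partner, by 0.062, 0.16 and 0.071, and the groups overlapped. Insig1 has 1 CCAAT box in its promoter, shown because the gene varied most of the 27 between the vehicle arrays (chr5:28071162-28071411, plus strand; CCAAT box in capitals).
Insig1: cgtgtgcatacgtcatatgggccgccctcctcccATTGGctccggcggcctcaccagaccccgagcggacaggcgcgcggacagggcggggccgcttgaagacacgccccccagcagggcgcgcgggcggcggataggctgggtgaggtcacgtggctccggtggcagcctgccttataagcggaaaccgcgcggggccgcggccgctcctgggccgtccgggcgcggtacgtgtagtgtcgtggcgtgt

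The 3 measured transport genes had a median difference of -0.08, with pair medians of -0.23, 0.089 and 0.024, and 0 passed. Stard4, a soluble sterol carrier and SREBP2 target, read 7.47, 7.22 and 7.29 with vehicle and 7.11, 7.19 and 7.40 with CMPF, with pair differences of -0.36, -0.029 and 0.11. Npc1, the membrane protein that passes cholesterol out of lysosomes, read 7.13, 7.22 and 7.20 against 6.90, 7.32 and 7.09, a difference of -0.080 (SE 0.120). Its partner Npc2, the soluble lysosomal sterol carrier, read 12.04, 11.95 and 12.04 with vehicle and 12.18, 12.04 and 12.07 with CMPF, so each CMPF array lay above its partner. Its second bright probe set differed by -0.0068, against 0.085 (SE 0.0859) for the first.

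On the export side, Abca1, the pump that loads cholesterol onto apolipoprotein A-I, read 10.76, 10.69 and 10.69 with vehicle and 10.67, 10.71 and 10.64 with CMPF. The difference was -0.045 (SE 0.0797, 95% interval -0.23 to 0.14), so a rise beyond that upper bound lies outside the interval. Dimmer probe sets of Abca1 gave -0.17, with pair differences of -0.21, -0.16 and -0.13, and -0.10, with -0.62, -0.084 and 0.39. Abcg1, another LXR-driven transporter, read 10.26, 10.23 and 10.28 with vehicle and 10.25, 10.09 and 10.19 with CMPF. It was lower in each pair (-0.018, -0.14 and -0.085), and the difference was -0.082 (SE 0.0840). Another probe set of Abcg1, dimmer but above the median level of all genes, gave -0.23 with pair differences of -0.28, -0.20 and -0.20. Nr1h3, which encodes LXR alpha, read 6.97, 6.53 and 6.93 with vehicle and 6.89, 6.71 and 6.74 with CMPF. Its vehicle arrays enclosed the CMPF arrays, and the difference was -0.033 (SE 0.136). Macrophages also express these export genes strongly; the mean of 14 macrophage markers ranged from 6.38 to 6.58 with vehicle and from 6.39 to 6.64 with CMPF, and the part of such cells in the export genes was not tested.

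LXR binds direct repeats of AGGTCA spaced by 4 bases. The pair AGGTCA, any 4 bases, AGGTCA, with at most 2 letters different and on both strands, was found for 1 of 24 genes, Dhcr7, against 3.47% of all genes. The Abca1 promoter (chr4:53159896-53160145, minus strand) is shown for comparison with the synthesis genes. It holds none of the motifs searched, which says only that those letters are not in the window. Repeats with more than 2 letters different were not searched for, so the search cannot say that this promoter lacks an LXR site.
Abca1: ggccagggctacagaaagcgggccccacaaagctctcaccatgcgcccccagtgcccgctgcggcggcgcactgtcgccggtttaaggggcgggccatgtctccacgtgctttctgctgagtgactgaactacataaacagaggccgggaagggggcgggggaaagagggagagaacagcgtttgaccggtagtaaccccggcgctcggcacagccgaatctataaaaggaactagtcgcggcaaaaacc

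SREBP2 targets and LXR genes were then set side by side. The 20 measured SREBP2 targets had a median difference of -0.072, with 14 negative, and Abca1, Abcg1 and Nr1h3 a median of -0.045, with 3 of 3 negative. By pair, the SREBP2 target median was -0.075, -0.071 and 0.0050, and the LXR and export median was -0.088, 0.018 and -0.085. The SREBP2 median minus the LXR median was -0.028 overall and 0.013, -0.089 and 0.090 in the pairs, so neither set lay below the other in all pairs. This difference was 0.053 with the mean of all probe sets of a gene and 0.017 with array weights, so its sign was not stable.

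**Figure D3:**
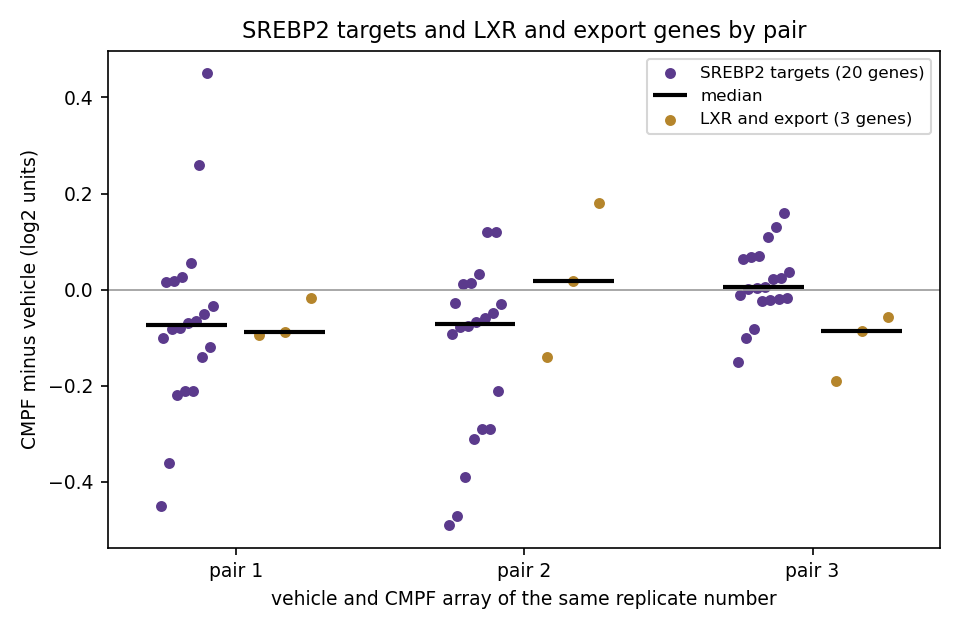
CMPF minus vehicle (log2 units) in each pair of same-numbered arrays, for the 20 SREBP2 target genes and for Nr1h3, Abca1 and Abcg1; each point is a gene and each bar a median. The SREBP2 target medians are -0.075, -0.071 and 0.0050, and the LXR and export medians change sign between pairs.

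Counted over the pairs, 5 of the 27 genes (18.5%) were lower with CMPF in all 3 pairs (Pmvk, Mvd, Fdps, Sqle and Abcg1), against 11.1% of all genes. A further 4 (14.8%) were higher in all 3 (Hsd17b7, Sc5d, Scap and Npc2), against 11.8% of all genes. Both shares lie near the background. With only 2 pairs to agree, 6 of 27 genes were lower without pair 1, against 22.0% of all genes. Without pair 2 it was 11 of 27, against 22.7%, and without pair 3 it was 13 of 27, against 27.2%. The shares without pair 2 and without pair 3 thus lay above the background. The count of higher genes was 1 with median centring and 2 with a second quantile normalization. A pattern chosen after its values were seen was lower in pairs 1 and 2 and higher in pair 3, which 8 of the 20 SREBP2 targets (40.0%) showed against 16.1% of all genes.

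Pair 3 is CMPF 3 minus vehicle 3, so that pattern and a low vehicle 3 array rest on the same values and are not separate results. Within the vehicle group, vehicle 3 was the lowest array for 12 of 20 SREBP2 targets (60.0%), against 31.4% of all genes, and CMPF 3 was the lowest CMPF array for 9 of 20 (45.0%), against 34.4%. The mean of the 20 targets was 8.45, 8.47 and 8.31 on the vehicle arrays and 8.38, 8.34 and 8.32 on the CMPF arrays, so the vehicle 3 array lay below all 3 CMPF arrays. Stellate markers followed the same signs over the pairs: their median differences were -0.38, -0.52 and 0.28, and 12, 11 and 0 of 12 were lower with CMPF. On the vehicle 3 array the acinar marker mean was also the lowest of the 6, at 10.31, and the stellate marker mean was 9.13, the second highest after CMPF 3 at 9.42. The SREBP2 target median was -0.073 in a fit with the acinar marker mean as covariate, but single genes moved more: Insig1 from -0.18 to -0.32, Fdps from -0.092 to -0.16 and Dhcr7 from -0.12 to -0.19, none called. The part of stellate cells was not tested.

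**Figure D4:**
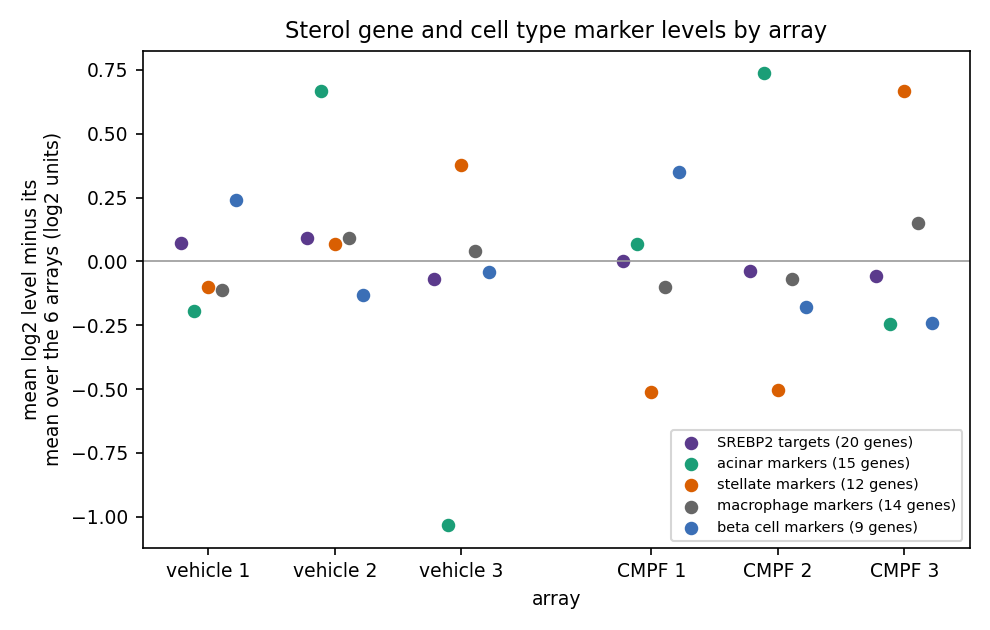
Mean log2 level of the 20 SREBP2 targets and of cell type marker lists on each array, minus its mean over the 6 arrays (log2 units). Acinar and stellate marker means spread far more between arrays than the sterol genes do, with acinar markers lowest on vehicle 3 (10.31) and stellate markers highest on CMPF 3 (9.42).

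Other genes of sterol metabolism were read from 4 lists in the same fit, and 0 of 44 genes passed the test in either direction. The genes named from each list are those with the smallest p, a choice that favours separated groups. Of 11 further SREBP target genes measured, 6 were negative and 5 positive, with a median of -0.067 and a range of -0.14 to 0.21. Ggps1, which makes the geranylgeranyl lipid from the same isoprenoids, read 7.54, 7.41 and 7.49 with vehicle and 7.32, 7.37 and 7.31 with CMPF. Its groups did not overlap, and the difference was -0.14 (SE 0.0825). It was the 1 gene of these 11 without overlap and with CMPF lower, against 2.11% of all genes. Scd2, a fatty acid desaturase, differed by -0.13 (SE 0.101), Aacs, which activates acetoacetate, by -0.14 (SE 0.144) and Rdh11, a retinol dehydrogenase, by -0.13 (SE 0.122).

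The 7 measured genes of the SREBP machinery (Srebf1, SREBP proteases and degradation factors) lay between -0.029 and 0.080, with a median of 0.0062. Of these 7, 3 were higher with CMPF in all 3 pairs, against 11.8% of all genes. Erlin1 differed by 0.080 (SE 0.0840) and was the 1 gene of the 7 without overlap and with CMPF higher, against 2.41% of all genes. The 9 further LXR targets had a median of 0.081, with 6 positive and 4 higher in all 3 pairs, against 11.8% of all genes. Among them Abcg5, a subunit of the sterol pump of gut and liver, was dim and read 3.67, 3.72 and 3.57 with vehicle and 3.90, 4.03 and 3.70 with CMPF, a difference of 0.22 (SE 0.110). Lpcat3, a phospholipid acyltransferase, differed by 0.081 (SE 0.0848) and Mylip, a ligase that degrades lipoprotein receptors, by 0.082 (SE 0.120). Pltp, a phospholipid transfer protein, differed by -0.075 (SE 0.117), with pair differences of -0.18, -0.25 and 0.21. None of these differences passed.

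Among 18 genes of sterol uptake, storage and oxidation 9 were negative and 9 positive. Cyp27a1, which makes the LXR ligand 27-hydroxycholesterol in mitochondria, read 5.01, 5.18 and 4.79 with vehicle and 5.19, 5.53 and 5.32 with CMPF. The CMPF arrays all lay above the vehicle arrays, with a difference of 0.35 (SE 0.134) at a dim level, and it did not pass (limma unadjusted p = 0.0324). Lipa, the lysosomal lipase that frees cholesterol from its esters, read 7.08, 6.83 and 7.10 against 7.18, 7.16 and 7.21, again without overlap, a difference of 0.18 (SE 0.100). Cyp27a1 and Lipa were the 2 of these 18 genes without overlap and with CMPF higher, against 2.41% of all genes. Vldlr, a lipoprotein receptor, differed by -0.16 (SE 0.131) and Apoa1, the acceptor of exported cholesterol, by -0.19 (SE 0.162).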

How the data were processed

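RNA from 6 islet samples was hybridised to Affymetrix mouse 3' arrays. The deposited log2 values are the authors' RMA summaries, for which the submitters' processing notes name Affymetrix Expression Console 1.1. RMA corrects background, equalises the arrays' distributions and summarises probes, so it compresses small signals. Its settings are not given in the sources read, and no detection calls come with the values. Precision is limited by the number of arrays.

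Of 45101 probe sets 64 were controls and were left out; 34945 named 1 gene, 932 several and 9160 none, by the platform's annotation. CMPF was compared with vehicle over 18193 genes with limma 3.58.1 in R 4.3.3 (lmFit, eBayes, two-sided, Benjamini-Hochberg over all genes, threshold 0.05), with no filter on dim genes. In data simulated from the real spreads, with 200 of 18193 genes changed, this fit recovered 30% of changes of 0.5 log2 units and 76% of changes of 1. It also made 6 false calls. The 200 genes included changes of 2 and 4 log2 units, which loosens the adjusted threshold, and arrays were drawn without pairs. These shares may therefore be too high for the real data. Deviations from group means correlated at 0.488 to 0.638 for same-numbered arrays and at -0.555 to 0.0885 otherwise, so pairs come from the data, not from the labels. The block lowered the median SE from 0.116 to 0.0877.

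Members and lists were chosen with earlier results of these data known, and the lists are described by counts and medians without a test. The text names all 30 members, up to 4 genes of each other pathway list by smallest p, and marker genes by highest mean. Duct, endothelial and other endocrine marker means were also computed: 8.54 to 9.42, 5.85 to 6.55 and 12.09 to 12.18 over the 6 arrays. Of 12 endothelial markers, 11 had a positive difference and 5 were higher with CMPF in all 3 pairs, against 11.8% of all genes. With the block, 5 of these 12 had an unadjusted limma p under 0.05, against 3.8% of all genes, and 0 were called. Of 9 measured duct markers, 6 were positive and 4 higher in all 3 pairs. The part of these cells was not tested. Alternatives were the block, filters on dim genes, probe set means, another scaling, array weights, a variance trend, an acinar covariate and leaving out arrays or pairs.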

Additional observations from a re-analysis of the deposited data

How the results depend on the processing

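Each of 0 calls over all genes, 0 over the 27 sterol genes and 0 over the 44 other pathway genes stayed 0 under every alternative run, the replicate block included. The SREBP2 target median (-0.072, also with the block) stayed negative, between -0.076 and -0.052 with all arrays and between -0.11 and -0.035 with arrays left out. The LXR and export median (-0.045, also with the block) was -0.11 with probe set means, and -0.095 to -0.020 with arrays left out. The SREBP2 median minus the LXR median ran from -0.057 to 0.045 with arrays left out. The count of genes higher in all 3 pairs was 2 with a second quantile normalization and 1 with median centring, and the count lower in all remaining pairs ran from 6 to 13 with a pair left out, where fewer pairs have to agree.

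With all arrays, 9 of 243 single-gene differences changed sign, none of them called. Msmo1 was 0.027 with probe set means, Cyp51 0.0044 with a second quantile normalization and 0.0075 with array weights, and Ebp -0.0050 with array weights. With the acinar covariate Fdft1 was -0.079, Sqle 0.016, Hsd17b7 -0.069, Insig2 0.080 and Nr1h3 0.041. With arrays left out, 31 of 243 changed sign, over ranges of -0.083 to 0.021 for Lss, -0.18 to 0.049 for Nr1h3, -0.035 to 0.051 for Ebp, -0.025 to 0.066 for Sc5d, -0.12 to 0.10 for Fdft1, -0.14 to 0.020 for Sqle, -0.083 to 0.020 for Cyp51, -0.10 to 0.16 for Hsd17b7, -0.14 to 0.10 for Insig2, -0.064 to 0.26 for Tm7sf2, -0.0070 to 0.16 for Srebf2, -0.19 to 0.023 for Npc1, -0.18 to 0.0032 for Fdps, -0.20 to 0.040 for Stard4 and -0.16 to 0.029 for Mvk. Genes that kept a negative sign also varied with arrays left out: Idi1 from -0.38 to -0.095, Insig1 from -0.39 to -0.035, Hmgcs1 from -0.37 to -0.067 and Dhcr7 from -0.28 to -0.024. The cause of these changes was not tested.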
